A study of Mus musculus with 8 samples.

Results

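The 10 genes described here were the Eph receptors Epha1, Epha2, Epha4, Epha7, Ephb2, Ephb3 and Ephb4 and the ephrins Efna1, Efnb1 and Efnb2. They were taken by symbol, matched from the Ensembl identifiers of the count tables, and all 10 were found among 45706 deposited genes and among the 14491 genes that passed the filter on low counts. They are 7 of the 14 receptors and 3 of the 8 ephrins of the mouse genome, and the list was chosen by the counts of these same small intestine (SI) and colon (COL) libraries. Their SI and COL values are therefore given as a description, with no p-value for any of the 10.

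RNA-Seq was performed on crypts freshly isolated with EDTA from 4 untreated wild type C57BL/6N mice, whose age is not given in the sources used here. Each mouse gave 1 SI and 1 COL library, named here SI1 to SI4 and COL1 to COL4 by replicate number, so that SI1 and COL1 share a mouse. Crypts are a mixture of epithelial cells, and in such bulk RNA fewer cells of a type and less RNA per cell cannot be told apart. Total counts lay between 15969428 (COL2) and 32908060 (COL4). The mitochondrial share was 4.83 to 7.35% for 2 SI libraries (SI1, SI4) and 2 COL libraries (COL3, COL4), called low here, and 22.7 to 50.8%, called high, for the other 4. The 4 libraries of the mice labelled female held 0 to 13 counts of Xist and 2721 to 4285 counts of 4 Y-linked genes, and the 4 of the mice labelled male held 1778 to 7694 and 0 to 11, so all 8 libraries went against their sex label. The epithelial marker Epcam stood between 391 and 906 CPM (counts scaled to the library's TMM-adjusted size) in all 8 libraries. Of the 5 epithelial markers 2 were called, Vil1 higher in SI (log2 fold change 3.25, adjusted p = 0.00038, edgeR quasi-likelihood test) and Krt18 higher in COL (-1.40, adjusted p = 0.00949), so the list shows no even epithelial level.

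Eph receptors are receptor tyrosine kinases, and their ligands, the ephrins, are themselves bound to the membrane of the neighbouring cell. A contact between both signals in either direction and commonly makes cells sort apart. Ephrin-A ligands hold to the membrane by a lipid anchor and bind mainly EphA receptors, while ephrin-B ligands span the membrane and bind mainly EphB receptors. In the gut, Ephb2 and Ephb3 are known as Wnt target genes of the crypt base, whose graded level, set against ephrin-B on cells higher up, keeps proliferating cells and Paneth cells in their place.

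The receptors are close relatives, and a stretch of the kinase domain that Ephb2 and Ephb3 share shows how far reads could tell this pair apart. The stretch below is 69 bases of the coding sequence of Ephb2 (bases 2198 to 2266, counted from the A of its start codon) around its longest run shared with Ephb3, and under it are the best ungapped matches of 5 other receptors, with bases that differ from Ephb2 in capitals.
Ephb2: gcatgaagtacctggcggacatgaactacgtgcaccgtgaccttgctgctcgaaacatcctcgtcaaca
Ephb3: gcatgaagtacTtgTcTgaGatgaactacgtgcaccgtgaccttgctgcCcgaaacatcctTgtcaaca
Ephb4: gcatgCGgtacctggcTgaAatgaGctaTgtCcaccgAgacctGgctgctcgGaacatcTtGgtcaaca
Epha2: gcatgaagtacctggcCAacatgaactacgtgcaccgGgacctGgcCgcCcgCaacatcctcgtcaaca
Epha4: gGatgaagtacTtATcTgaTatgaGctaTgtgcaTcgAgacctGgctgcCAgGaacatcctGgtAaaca
Epha1: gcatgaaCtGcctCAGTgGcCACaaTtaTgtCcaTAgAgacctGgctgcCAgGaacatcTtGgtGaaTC
Here Ephb3 was identical to Ephb2 at 63 of 69 bases (91.3%), Epha2 at 62, Ephb4 at 57, Epha4 at 53 and Epha1 at 44. The longest run without a difference measured 29 bases between Ephb2 and Ephb3 and 32 bases, the longest of any pair, between Epha2 and Epha7. No stretch of 50 bases was shared by any 2 of the 10. With genes outside the family, 6.8% of the 50-base stretches of Epha1 were shared, where its exons overlap the antisense gene Zyx, and 0.3% of those of Ephb2. Since the strand setting of the counting is not given, the Epha1 values may hold some Zyx reads.

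The bases upstream of the annotated starts are shown for a pair of receptors that stood higher in COL (Ephb2, Ephb3) and a pair that stood higher in SI (Epha1, Epha2), from RefSeq on GRCm38.p6, with each CG dinucleotide in capitals. For Ephb3 the last 40 of 250 bases lie inside the gene as GENCODE annotates it and were left out.
Ephb2, chr4:136836013-136836262, minus strand: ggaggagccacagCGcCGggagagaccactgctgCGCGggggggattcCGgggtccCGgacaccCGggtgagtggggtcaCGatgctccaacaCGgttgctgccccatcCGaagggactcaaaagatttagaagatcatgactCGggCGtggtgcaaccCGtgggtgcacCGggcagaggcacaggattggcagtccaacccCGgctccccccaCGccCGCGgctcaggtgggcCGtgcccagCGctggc
Ephb3, chr16:21204545-21204754, plus strand: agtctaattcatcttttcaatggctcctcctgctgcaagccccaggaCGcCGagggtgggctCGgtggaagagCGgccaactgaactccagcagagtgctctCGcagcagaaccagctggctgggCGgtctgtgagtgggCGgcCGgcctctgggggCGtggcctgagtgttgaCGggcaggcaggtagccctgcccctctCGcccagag
Epha1, chr6:42373269-42373518, minus strand: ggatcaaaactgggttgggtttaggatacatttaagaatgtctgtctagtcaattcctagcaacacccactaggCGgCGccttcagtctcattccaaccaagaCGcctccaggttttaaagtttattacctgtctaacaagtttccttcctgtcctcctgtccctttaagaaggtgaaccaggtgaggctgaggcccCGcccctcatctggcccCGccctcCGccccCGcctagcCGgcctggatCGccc
Epha2, chr4:141300971-141301220, plus strand: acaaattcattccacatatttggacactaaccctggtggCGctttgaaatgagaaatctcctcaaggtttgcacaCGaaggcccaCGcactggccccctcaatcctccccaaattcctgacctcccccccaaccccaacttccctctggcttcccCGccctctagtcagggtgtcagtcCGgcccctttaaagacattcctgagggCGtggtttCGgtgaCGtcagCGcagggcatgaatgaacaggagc
These stretches held 20 CG dinucleotides for Ephb2 and 11 for Ephb3, against 9 each for Epha1 and Epha2. The GC content was 68.4% and 65.2% for the EphB pair and 54.4% and 55.6% for the EphA pair. This gap was not one between the classes, since the 250 upstream bases held 66.0% for Epha4 and 69.2% and 66.8% for the Epha7 promoters. For Efnb2, which overlapped between the tissues, it was 72.0%. The Epha1 stretch lies in the body of the antisense gene 2010310C07Rik, and no exon was annotated in any of the 4. The letters CTTTGAT, the core bound by the Wnt effectors TCF and LEF, were sought on both strands from 250 bases before to 50 bases after each RefSeq start. They were in the window of 0 of the 10 genes, against 4.3% of 27025 genes, which says only that these letters are not in these windows.

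The EphB receptors stood higher in COL crypts and 2 EphA receptors higher in SI crypts. Ephb2 measured 3.13, 20.6, 28.1 and 13.7 CPM in SI1 to SI4 and 80.7, 43.6, 36.3 and 45.3 CPM in COL1 to COL4. The ranges did not overlap, though SI3 came close to COL3, its partner from the same mouse. The log2 fold change, SI over COL, was -1.65 (SE 0.53). Ephb3 measured 0.82, 2.66, 3.904 and 2.29 CPM in SI and 43.0, 24.6, 23.3 and 29.5 CPM in COL. Its SI libraries rested on 18 to 77 counts and its COL libraries on 395 to 1465, and at -3.64 (SE 0.45) it had the lowest log2 fold change of the 10. Ephb4, best known from the endothelium of veins as the receptor of ephrin-B2, measured 1.99, 11.6, 18.9 and 12.6 CPM in SI and 51.9, 47.0, 36.5 and 52.4 CPM in COL. Its log2 fold change was -2.06 (SE 0.51).

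**Figure D1:**
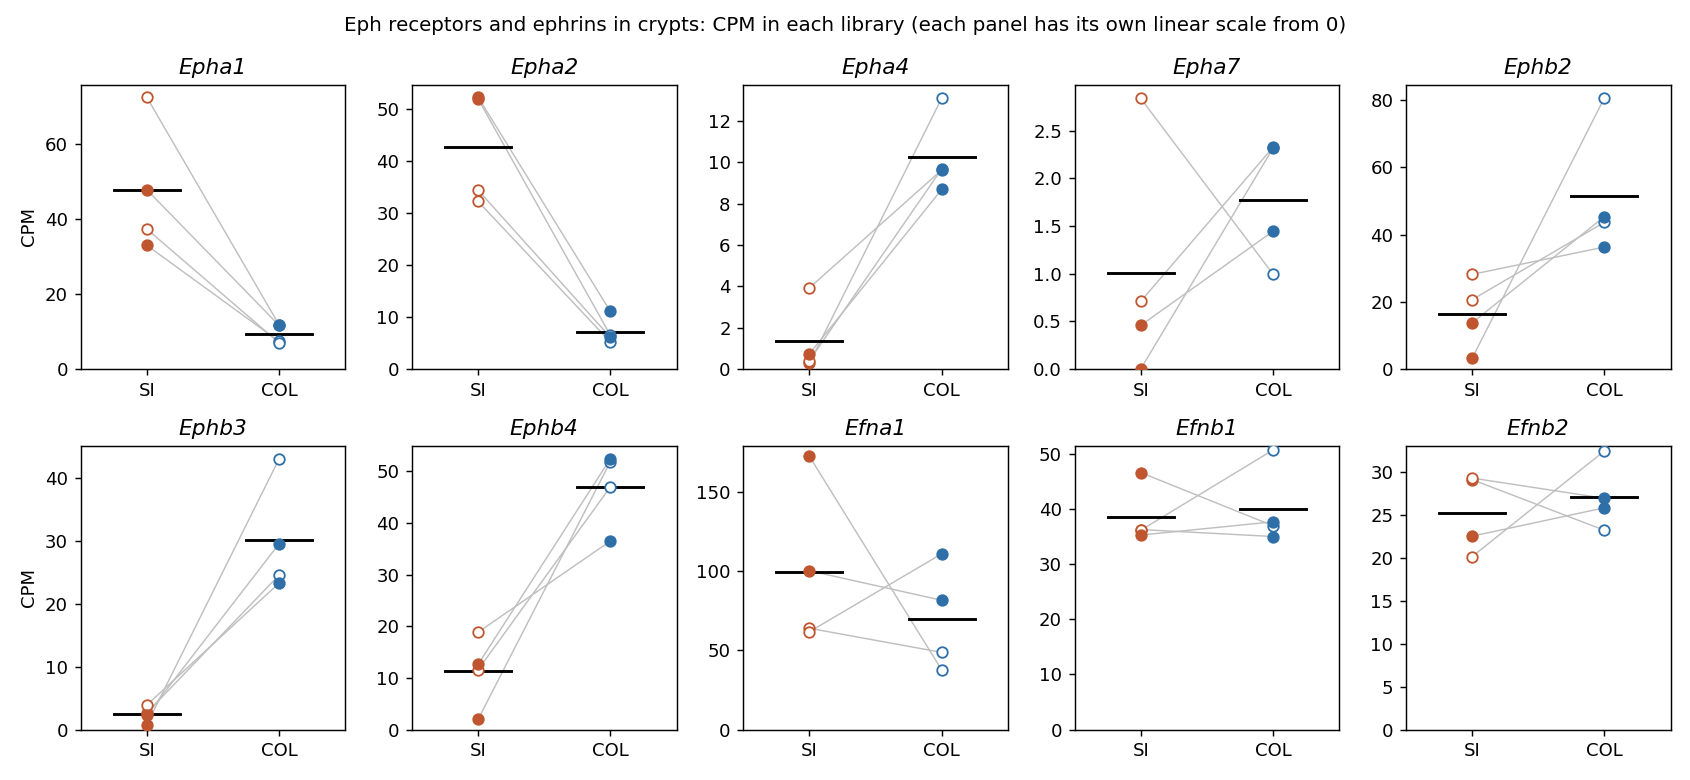
CPM of the 10 genes in each library (y axis, linear from 0, a separate scale per panel) for SI and COL crypts (x axis), with grey lines joining the libraries of 1 mouse, bars at the mean of 4, filled points for low and open points for high mitochondrial share. Ephb2, Ephb3, Ephb4 and Epha4 stand higher in COL, Epha1 and Epha2 higher in SI, and the points of Epha7 and the 3 ephrins overlap.

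SI1 had the lowest value of each EphB receptor. It also had the highest summed level of 5 enterocyte markers (30020 CPM, against 11260 to 18840 in the other SI libraries). Its summed level of 7 Paneth cell markers was the lowest in SI (605 CPM against 1898 to 4626). In COL these sums were 6.84 to 40.5 CPM and 18.05 to 83.1 CPM, so both differed between the tissues as well. The part of these markers in the EphB values was not tested. Without SI1 the log2 fold change of Ephb2 was -1.29 and its call was kept. In all 4 mice each EphB receptor was higher in COL than in SI, by 0.37 (replicate 3) to 4.65 (replicate 1) on the log2 scale for Ephb2 and by 2.55 to 5.56 for Ephb3. In replicates 1 and 3 the libraries of a mouse differed in mitochondrial share (SI1 low, COL1 high, SI3 high, COL3 low). The part of this share in the range was not tested. Fitted within the libraries of low mitochondrial share, the log2 fold changes were -2.28 for Ephb2, -4.09 for Ephb3 and -2.61 for Ephb4, and within those of high share -1.43, -3.44 and -1.76.

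Ephb4 is an endothelial gene elsewhere, so the 8 endothelial markers are given beside it. Their summed level was 0.37 to 6.83 CPM in SI and 1.70 to 9.95 CPM in COL. The part of endothelial cells in the Ephb4 values was not tested. Pecam1 measured 0.10 to 0.86 CPM in SI and 1.23 to 5.41 CPM in COL (log2 fold change -2.69, SE 0.79). It passed the filter on low counts through COL, where it stood higher, so its call is given as a description without a p-value. Tek, the only other of the 8 that was tested, leaned the other way and did not pass (log2 fold change 2.81, SE 1.35, adjusted p = 0.142, edgeR quasi-likelihood test). Cdh5 was at 0 in 6 libraries and at most 0.36 CPM in the others, and Kdr stayed at or below 2.18 CPM. Of the 6 markers under the filter, Cdh5, Kdr and Emcn had the higher mean in SI (0.091, 0.54 and 0.32 CPM, against 0.031, 0.16 and 0.073). Flt1, Tie1 and Eng had it in COL (0.61, 0.43 and 0.40 CPM, against 0.23, 0.15 and 0.03).

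Among the EphA receptors, Epha1 measured 32.98, 37.3, 72.5 and 47.8 CPM in SI and 7.33, 6.96, 11.8 and 11.6 CPM in COL. The SI mean was 5.06 times the COL mean, with a log2 fold change of 2.33 (SE 0.33). Epha2, whose main ligand is ephrin-A1, measured 51.9, 32.2, 34.4 and 52.2 CPM in SI and 6.45, 5.16, 6.07 and 11.04 CPM in COL, which gave 5.94 times and a log2 fold change of 2.57 (SE 0.32). All 4 mice had both genes higher in SI, and no SI library came near a COL library in either. Within the libraries of low mitochondrial share the log2 fold changes were 1.78 (Epha1) and 2.59 (Epha2), and within those of high share 2.88 and 2.44.

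Epha4, which binds ephrins of both classes, went with the EphB receptors. It measured 0.27, 3.93, 0.41 and 0.73 CPM in SI, on 6 to 65 counts, and 13.1, 9.63, 9.68 and 8.69 CPM in COL, on 155 to 447 counts. This gave a log2 fold change of -2.97 (SE 0.74). SI2 stood above the other SI libraries. SI2 was also the highest SI library for the summed endothelial (6.83 CPM), fibroblast (5.50 CPM) and smooth muscle (12.3 CPM) markers, and their part in its Epha4 value was not tested. Without SI2 the log2 fold change of Epha4 was -4.42. Epha7, a receptor of ephrin-A ligands, was close to the limit of detection, at 0, 2.84, 0.71 and 0.46 CPM in SI and 2.32, 0.99, 2.33 and 1.44 CPM in COL. Its groups overlapped, SI2 was again the highest SI library, and the 95% interval of its log2 fold change ran from -3.0 to 1.32.

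The 3 ephrins overlapped between the tissues. Efna1, the ephrin-A1 gene, measured 172.5, 64.0, 61.8 and 100.3 CPM in SI and 37.7, 48.8, 111.0 and 81.7 CPM in COL. Its log2 fold change was 0.51 (SE 0.43, 95% interval -0.42 to 1.45). In each tissue its 2 lowest libraries were those of high mitochondrial share. Efnb1, the ephrin-B1 gene, measured 46.6, 36.1, 36.3 and 35.3 CPM in SI and 36.9, 50.7, 35.0 and 37.7 CPM in COL. Its log2 fold change was -0.05 (SE 0.23), and its 95% interval corresponded to 0.68 to 1.37 times the COL level. Efnb2, the ephrin-B2 gene, measured 29.2, 20.2, 29.4 and 22.6 CPM in SI and 23.3, 32.5, 27.0 and 25.9 CPM in COL. Its log2 fold change was -0.10 (SE 0.24) and its interval 0.65 to 1.34 times. Both ephrin-B genes were higher in SI in 2 of 4 mice. Such intervals leave room for differences of about that size and do not show that the tissues are alike.

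Of the 10 genes, 6 were called at an adjusted p below 0.05 in the fit across all genes, where 28.4% of the 14491 tested genes were called. These were 2 genes higher in SI, where 15.5% of all genes were called in that direction, and 4 higher in COL, where 12.9% were. The same 6 had CPM ranges without overlap, as did 33.5% of all genes. Nothing is read from these shares, because the list was drawn up with this comparison known. The call of Ephb2 was the least stable. It was lost with the donor mouse as a block in edgeR (log2 fold change -1.82), without SI2 (-1.76), SI4 (-1.63), COL1 (-1.35) or COL4 (-1.70), and within the libraries of low (-2.28) or high (-1.43) mitochondrial share, while its direction held. The Epha4 call was lost within the libraries of high share (-2.50) and the Ephb4 call within those of low share (-2.61), each on 2 libraries a tissue.

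**Figure D2:**
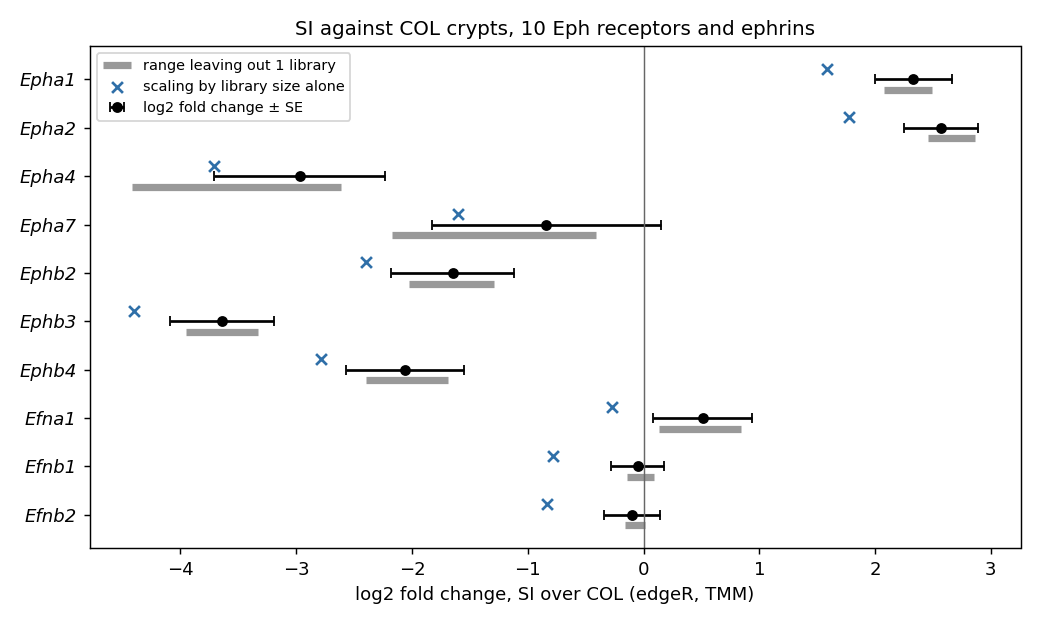
Log2 fold change, SI over COL, of the 10 genes (x axis) with its standard error (black), the range when 1 of the 8 libraries was left out (grey bar) and the value with scaling by library size alone (cross). Epha1 and Epha2 lie right of 0 and the EphB receptors and Epha4 left of 0 under each of these, and the crosses of all 10 genes are shifted left together, with Efna1 at -0.27 but still 0.55 above the median gene.

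Another scaling between libraries moved all 10 genes by about the same amount. With library size alone as the scale, the median over all genes went from -0.09 to -0.82 (log2), and Efna1 then stood at -0.27, Efnb1 at -0.78 and Efnb2 at -0.83, the last 2 past the threshold. Taken against the median gene, Efna1 stood at 0.60 with TMM and 0.55 with library size alone, so its change of sign came with the shift of the median. On the same footing Efnb1 stood at 0.03 with TMM and 0.04 with library size alone, and Efnb2 at -0.01 with both. Ephb3 stood at -3.55 and -3.58 in the same comparison, and Epha2 at 2.66 and 2.60.

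Levels per kilobase of exon, which allow genes to be set beside each other, were used for what follows, and within a library they do not depend on the scaling. They do depend on the length used, and so does the order of the genes below, as for Ephb4 and Ephb2. In SI the order of the mean levels was Efna1 (54.5 CPM per kb), Epha1 (12.1), Efnb1 (11.2), Epha2 (9.13), Efnb2 (3.69), Ephb4 (2.43), Ephb2 (1.30), Ephb3 (0.36), Epha4 (0.17) and Epha7 (0.10). Only the steps from Efna1 to Epha1 and from Epha2 to Efnb2 were free of overlap between libraries. In COL the order was Efna1 (38.1 CPM per kb), Efnb1 (11.6), Ephb4 (10.1), Ephb3 (4.53), Ephb2 (4.08), Efnb2 (3.96), Epha1 (2.40), Epha2 (1.54), Epha4 (1.28) and Epha7 (0.18). There the libraries of Ephb4 and Ephb3, of Efnb2 and Epha1, of Epha4 and Epha7 and of Efna1 and Efnb1 did not overlap, and the ranges of Ephb3, Ephb2 and Efnb2 overlapped, although Ephb3 was above Ephb2 within each of the 4 COL libraries.

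The sum of the 7 receptors overlapped between the tissues on the TMM scale, at 20.3 to 32.8 CPM per kb in SI and 19.98 to 29.2 in COL, while its makeup, which does not depend on the scaling, did not. EphB receptors made up 3.94, 20.9, 21.0 and 15.03% of the summed receptor level in SI1 to SI4 and 82.5, 80.6, 71.3 and 74.7% in COL1 to COL4. By exon length Ephb4 was the largest part in COL, at 38.3 to 47.2%, against 2.11 to 12.4% in SI. Its place above Ephb2 depends on that length, 4640 bases against 12608. Their coding sequences are close in length (2988 bases for Ephb4, 2961 for Ephb2), and their COL means were 46.95 and 51.47 CPM. Ephb2 contributed 13.9 to 21.9% in COL and 1.22 to 7.53% in SI, and Ephb3 contributed 17.2 to 22.2% in COL and 0.60 to 1.84% in SI. In SI, Epha1 contributed 41.3 to 56.2% and Epha2 contributed 22.4 to 54.6%. In COL these were 6.40 to 14.99% and 4.74 to 9.12%. The order of Epha1 and Epha2 was open in SI, where their ratio ran from 0.76 (SI1) to 2.51 (SI3).

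**Figure D3:**
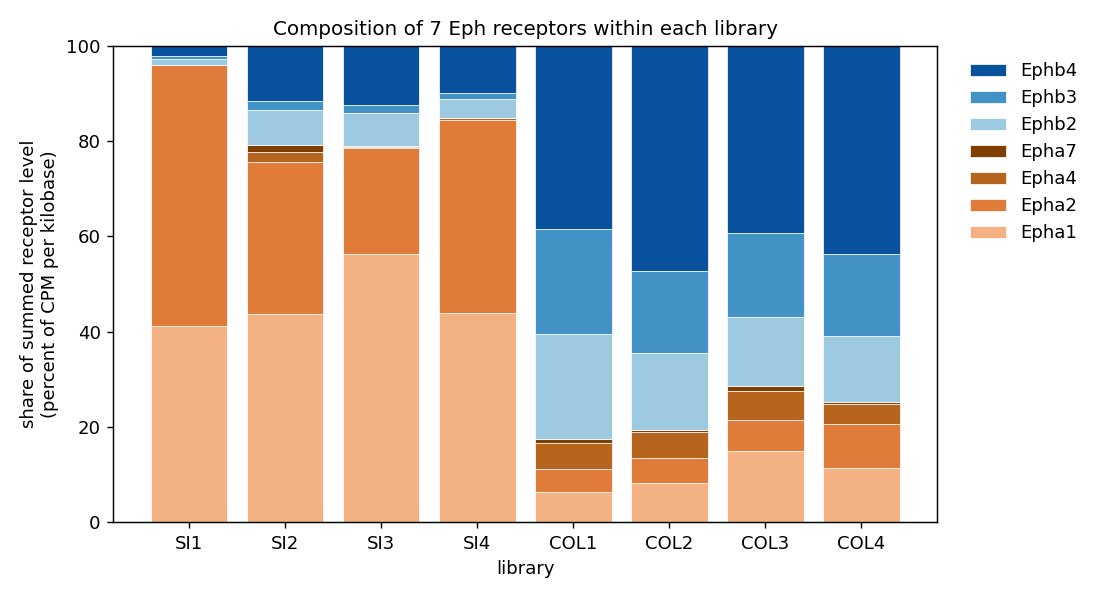
Share of each of 7 Eph receptors in their summed level (y axis, percent of CPM per kilobase of exon) in each library (x axis), with EphA receptors in orange and brown and EphB receptors in blue. The EphB share is 3.94 to 21.0% in the SI libraries and 71.3 to 82.5% in the COL libraries.

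Ephb2 and Ephb3 did not differ between the tissues by the same factor. The ratio of Ephb2 to Ephb3, per kilobase, was 2.02, 4.08, 3.80 and 3.15 in SI1 to SI4 (mean 3.26 ± 0.92, SD, n = 4) and 0.99, 0.94, 0.82 and 0.81 in COL1 to COL4 (mean 0.89 ± 0.088, SD, n = 4). The absolute ratio depends on the length used, since the exons of Ephb2 span 12608 bases and its coding sequence 2961. By coding length the means were 6.23 in SI and 1.70 in COL, which puts Ephb2 above Ephb3 in COL as well, and the longest transcript gave a COL mean of 0.73. The gap between the tissues is a matter of counts and does not change with the length. The ratio of Ephb4 to Ephb2, per kilobase of exon, overlapped, at 1.53 to 2.51 in SI and 1.75 to 3.14 in COL. Its absolute size depends on the length used as well.

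Set against their ligands, the EphB receptors differed between the tissues while the ephrin-B genes overlapped. The summed EphB level was 0.80, 4.54, 6.88 and 4.15 CPM per kb in SI and 24.1, 17.3, 14.3 and 19.3 in COL. The summed ephrin-B level was 17.7, 13.4, 14.8 and 13.5 CPM per kb in SI and 14.1, 19.4, 14.1 and 14.7 in COL. The EphB receptor to ephrin-B ratio was 0.045 to 0.466 in SI (mean 0.289 ± 0.176, SD, n = 4) and 0.890 to 1.71 in COL (mean 1.23 ± 0.364, SD, n = 4). With coding length the COL mean was 0.676. Efnb1 stood about as far above Efnb2 in both tissues, with ratios of 2.45 to 3.56 in SI and 2.57 to 3.15 in COL. The absolute size of this ratio depends on the length used. Their exons span 3452 and 6855 bases and their coding sequences 1035 and 1008. For the A class, summed EphA receptors to ephrin-A1 gave 0.207 to 0.768 in SI and 0.0945 to 0.248 in COL, and these overlapped because SI1, with its high Efna1, fell within the COL range.

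**Figure D4:**
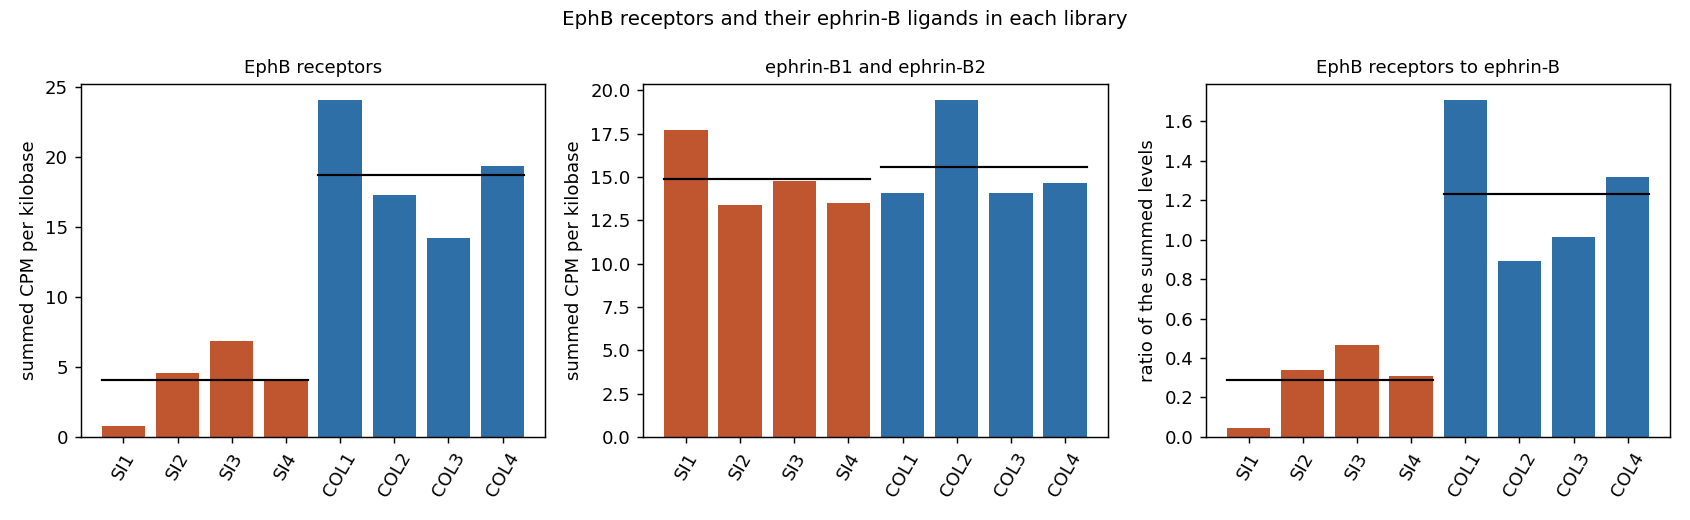
Summed level of Ephb2, Ephb3 and Ephb4, summed level of Efnb1 and Efnb2 (both in CPM per kilobase of exon), and the ratio of these sums, in each library (x axis) of SI (orange) and COL (blue) crypts, with lines at the mean of 4. The receptor sums and the ratios do not overlap between the tissues, with ratios up to 0.466 in SI and from 0.890 in COL, and the ephrin-B sums overlap.

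The remaining family was scarce. Of 12 other Eph receptor and ephrin genes, 4 passed the filter on low counts and 1 was called, where 28.4% of all genes were. This was Efna3, an ephrin-A gene, with 5, 2, 13 and 8 counts in SI and 54, 61, 71 and 59 counts in COL (log2 fold change -2.60, SE 0.69). Efna3 passed the filter through COL, where it stood higher, so its call is given as a description without a p-value. Of its 50-base stretches 8.6% are shared with the antisense gene Gm15998, so some of these reads may not be its own. Efna4, next to it on chromosome 3, had 14 to 83 counts in SI and 57 to 260 in COL and did not pass (log2 fold change -0.84). It shares 7.7% of its 50-base stretches with the antisense gene 4731419I09Rik, so the same limit holds for its reads. Epha5, a receptor best known from neurons, had 0 to 21 counts in SI and 0 to 12 in COL. Efnb3 had 0 to 15 and 4 to 33 counts, and neither passed.

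Among the 8 genes under the filter, Epha8 had 0 counts in all 8 libraries. Ephb6, a receptor whose kinase is inactive, had 0, 1, 0 and 0 counts in SI and 0, 17, 35 and 97 counts in COL. It was called higher in COL with no filter on low counts, in 5 of the fits that left out 1 library, and within the libraries of low mitochondrial share. Over all genes 4523 of 33110 were called with no filter and 5530 of 14955 within low share. With 1 library left out, 3167 to 4480 were called among 14901 to 15536 tested. In the filtered fits Ephb6 passed the filter through COL, where it stood higher, so these calls are only a description. COL1, at 0 counts, stood with the SI libraries. Ephb1, a receptor of the same class as Ephb2, had 0 to 8 counts in SI and 0 to 1 in COL. Epha3, Epha6, Epha10, Efna2 and Efna5 reached at most 21 counts in any library.

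Known partners of Eph receptors and ephrins are given from a list chosen with earlier results of these data known. Nothing is therefore read from the share called, and the p-values carry the same limit. Of 31 adaptors, kinases, exchange factors and other partners, all tested, 9 were called (29.0%, against 28.4% of all genes), 7 higher in SI and 2 higher in COL. With scaling by library size alone 9 were called as well, but 2 higher in SI and 7 higher in COL, so the split by direction rests on the scaling. Vav2 and Kalrn were the 2 still called higher in SI, while Sdcbp, Arhgef16, Src and Pak1 no longer passed. All values in this paragraph are from edgeR's quasi-likelihood test over all genes tested. Vav2, an exchange factor that binds activated Eph receptors, was higher in SI (42.1 to 60.8 CPM against 6.39 to 9.11 CPM, log2 fold change 2.64, SE 0.26, adjusted p = 3.14e-05). Its relative Vav3, singled out after its values were seen, was higher in COL (1.42 to 6.19 CPM in SI against 5.53 to 22.3 in COL, log2 fold change -2.58, SE 0.57, adjusted p = 0.00583). COL2, at 5.53 CPM, lay within the SI range of Vav3. Vav2 and Vav3 thus differed between the tissues in opposite directions. Kalrn, another exchange factor, was higher in SI (103.4 to 175.2 CPM against 10.9 to 35.4 CPM, adjusted p = 0.000516). Sdcbp encodes syntenin, a PDZ protein that binds the tail of ephrin-B, and had a log2 fold change of 1.74 (SE 0.38, adjusted p = 0.00509). Arhgef16, an exchange factor that binds EphA2, was higher in SI by 1.27 (SE 0.36, adjusted p = 0.0207). The kinases Src and Pak1 had log2 fold changes of 1.01 and 0.88 (adjusted p = 0.0123 and 0.0173).

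Wnt target genes of the crypt did not all follow Ephb2 and Ephb3. Of 14 on the list, 12 were tested and 4 were called (33.3% of those tested, against 28.4% of all genes), 3 higher in COL and 1 higher in SI. This list too was chosen with earlier results known, so nothing is read from the share, and the p-values carry that limit. Sox9, a transcription factor of the crypt base, measured 3.03, 9.97, 10.04 and 7.10 CPM in SI and 85.8, 51.1, 43.7 and 57.0 CPM in COL (log2 fold change -2.98, SE 0.40, adjusted p = 0.000241, edgeR quasi-likelihood test). Cd44, an adhesion molecule, measured 2.17 to 18.1 CPM in SI and 45.6 to 99.0 in COL (log2 fold change -2.66, SE 0.53, adjusted p = 0.00317, same test). Znrf3, a negative regulator of Wnt receptors, measured 2.40 to 8.82 and 11.2 to 18.9 CPM (log2 fold change -1.19, SE 0.40, adjusted p = 0.0464, same test). Sp5, named beside the rule as the only one called higher in SI, lay at 1.93 to 4.31 CPM in SI and 0 to 0.235 CPM in COL. It passed the filter on low counts through SI, so its call is given as a description without a p-value. Other direct readouts, singled out after their values were seen, did not pass the test. Axin2 measured 18.4 to 29.1 CPM in SI and 11.96 to 20.6 in COL (log2 fold change 0.39), and Rnf43 measured 30.2 to 50.4 and 25.8 to 33.6 CPM (0.29). The stem cell marker Lgr5 measured 0.63, 9.91, 11.2 and 5.82 CPM in SI and 11.5, 16.1, 12.7 and 11.5 in COL (-0.92), with SI1 again the lowest. Myc had a log2 fold change of -0.86, and SI1 was its lowest library as well, at 2.63 CPM. Ascl2 (-1.43), Nkd1 (-0.65), Tnfrsf19 (-0.41) and Tcf7 (-0.40) did not pass either and leaned to COL. Of the 8 tested and not called, only Axin2 and Rnf43 thus leaned to SI. The median log2 fold change of the 12 tested was -0.75.

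**Figure D5:**
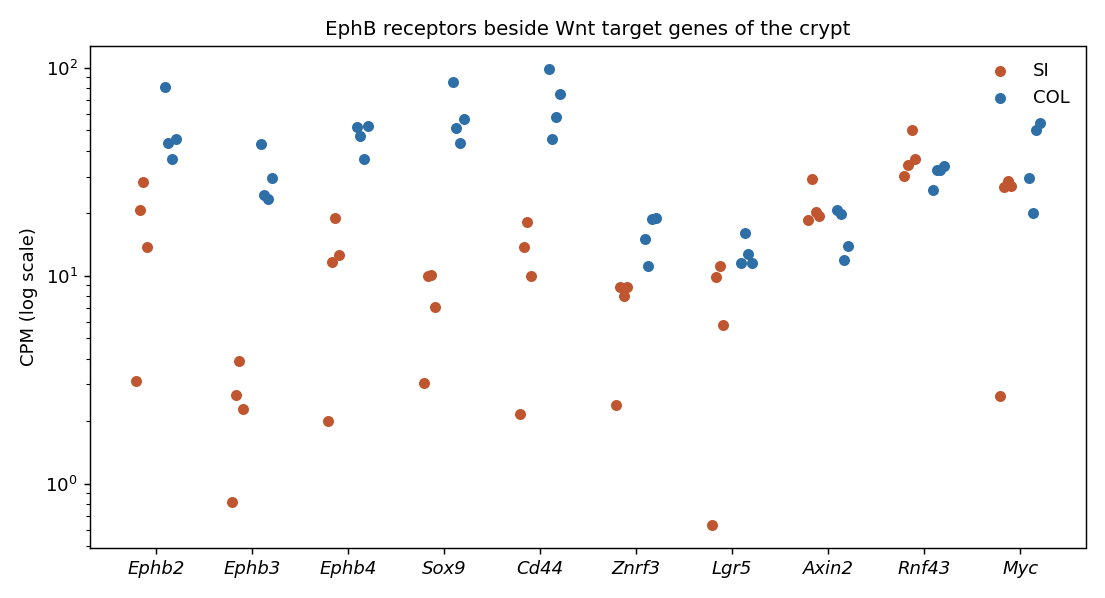
CPM (y axis, log scale) of the EphB receptors and of 7 Wnt target genes (x axis) in SI (orange) and COL (blue) crypts, 1 point per library in replicate order from left to right. Sox9, Cd44 and Znrf3 share the higher COL level of the EphB receptors, Axin2 and Rnf43 overlap between the tissues, and SI1 is the lowest SI library for each of the 10 genes shown.

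Profiles over the 8 libraries were compared for 4 of the genes with those of 7796 genes of at least 3 in mean log2 CPM, each centred on its own mean, as a description. For Ephb2 the smallest root mean square differences belonged to Nap1l1 (0.258 on the log2 scale), Kcnq1 (0.310) and Sema5a (0.317), where the median gene stood at 1.52. Ephb4 came to 0.375 from Ephb2, closer than any other of the 10. For Ephb3 the nearest were Ckap4 (0.353), Sox9 (0.373) and Rab3d (0.406), against a median of 2.13. Sox9 was thus both a Wnt target of the list and 1 of the 3 nearest profiles. For Efnb1 they were Dhx8 (0.086), Dnajc5 (0.087) and Arih1 (0.095), and for Efnb2 Ankle2 (0.124), Tm7sf3 (0.128) and Ppp2r2a (0.148). Efnb1 and Efnb2 lay 0.162 apart. Such small values belong to genes that vary little over these libraries, where the median gene lay 0.63 and 0.62 away.

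The sex labels gave a contrast that did not enter the choice of the genes, with 2 mice and 4 libraries on each side and tissue in the fit. The 2 libraries of a mouse entered as independent, so these standard errors and p-values do not measure the spread between animals alone. Because the labels went against Xist and the Y-linked genes in all 8 libraries, it is written as labelled male against labelled female. In SI it coincided with the mitochondrial share and cannot be told apart from it. Of the 10 genes 0 were called by edgeR, where 0.0345% of all genes were (5 genes, with 799 at an unadjusted p below 0.05, and 32 called by DESeq2). At an unadjusted p below 0.05 there was 1 of the 10 by edgeR and by DESeq2. This was Epha2, at 19.5 CPM in the libraries labelled male and 30.4 CPM in those labelled female (log2 fold change -0.64, SE 0.26, adjusted p = 0.861). For Ephb2, Ephb3 and Ephb4 the log2 fold changes, labelled male over labelled female, were 0.43, 0.18 and 0.36 with standard errors of 0.44 to 0.56. For Efnb1 it was 0.01 (SE 0.25), in libraries at 39.5 and 39.1 CPM on average.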

How the data were processed

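RNA-Seq of freshly isolated SI and COL crypts was analysed from whole-number counts per gene, deposited by the authors as 1 table per tissue with 4 libraries each. Per the labels' processing notes the tools were Trimmomatic 0.36 and STAR 2.5.2b, and mm9 and mm10 are both named as builds. The methods give mm10. The annotation release and the strand setting are not given in the sources used here. Groups came from the labels. The members and the gene lists were chosen with earlier results of these data known. All 8 libraries went against their sex label.

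Counts were scaled by TMM, filtered with filterByExpr by tissue, and tested with the edgeR 4.0.16 quasi-likelihood test (R 4.3.3), with Benjamini-Hochberg adjustment over 14491 genes and a threshold of 0.05. Alternatives used limma 3.58.1, DESeq2 1.42.0, other scalings and filters, a donor block and left-out libraries. Same-numbered libraries come from 1 mouse per the labels, and the correlations of their deviations from the tissue means were -0.24, 0.39, -0.08 and 0.33. CPM are counts over the TMM-scaled library size. Levels per kilobase use the union of exons in GENCODE vM21 on GRCm38, where 563 of the 45706 identifiers had no entry. Ratios of levels use the same values. The libraries of a tissue come from different mice, and the main fit holds tissue alone, with no term for the donor mouse. Its p-values for SI against COL therefore measure the spread between libraries within a tissue, not that of differences within a mouse. Differences in mitochondrial share are part of that spread. The low and high mitochondrial shares are divided at 15%. The named genes were all 22 of the family, the 6 Eph partners and up to 4 Wnt targets with the largest absolute log2 fold change, among those called whose log2 CPM averaged 3 or more, and for Ephb2, Ephb3, Efnb1 and Efnb2 the 3 genes outside the 10 with the nearest profiles. Promoter letters come from RefSeq on GRCm38.p6, where all 10 genes matched.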

Additional observations from a re-analysis of the deposited data

Results flagged for a closer look

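In 56 groups of 4 libraries (10 genes, shares, sums and ratios in each tissue), 7 held a library set apart from the other 3 by Dixon's test, and chance flags about 1 in 20. SI2 was set apart for Epha4 (3.93 CPM against 0.27 to 0.73), for the share of Epha4 in the receptor level (2.25% against 0.15 to 0.33%) and for that of Epha7 (1.32% against 0 to 0.22%). Efnb1 was set apart in SI1 (46.6 CPM against 35.3 to 36.3 in the other SI libraries). In COL2 it was Efnb1 (50.7 CPM against 35.0 to 37.7) and with it the summed ephrin-B level (19.4 CPM per kb against 14.1 to 14.7). The Ephb3 share of the receptor level was set apart in COL1 (22.2% against 17.2 to 17.5%). COL2 had the highest mitochondrial share of the 8 libraries, at 50.8%, and the lowest total count.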

How the results depend on the processing

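Of the 10 genes, 5 to 6 were called when 1 library was left out, and the direction of the 6 called genes held under every alternative that gave a value. Efna1 changed sign with scaling by library size alone (-0.27), which moved the median gene from -0.09 to -0.82, but not against that median (0.60 and 0.55). The sign also changed for Efnb1 within the libraries of low mitochondrial share (0.16) and without COL2 (0.09), and Efnb2 without SI2 or COL2 (0.01 each). With 1 library left out, Efnb1 ran from -0.14 to 0.09 and Efnb2 from -0.16 to 0.01. Over all genes, 4116 were called (2253 higher in SI, 1863 in COL), 5903 with library size alone (1115 higher in SI, 4788 in COL), 2264 within the libraries of high mitochondrial share, and 3167 to 4480 with 1 library left out. With the donor mouse as replicate block 4072 were called by edgeR and 4707 by limma-voom, and Ephb2 was the only one of the 10 whose call changed, in edgeR. Other family genes called numbered 1 in the main analysis, 2 with no filter on low counts and within low mitochondrial share, 0 with at least 10 counts in every library (which drops Epha4 and Epha7 as well) or within high mitochondrial share, and 1 to 2 with 1 library left out. The 9 Eph partners (7 higher in SI) stayed 9 with library size alone, of which 2 were higher in SI, and became 14 within low and 3 within high mitochondrial share, and 5 to 9 with 1 library left out (5 without SI4 or COL1). The 4 Wnt targets became 2 within high mitochondrial share and 3 to 4 with 1 library left out. For the sex labels the 5 calls became 32 by DESeq2, 207 with no filter and 0 with at least 10 counts in every library, and 5 to 6 with 1 library left out, with 0 of the 10 genes called each time. By coding length the Ephb2 to Ephb3 ratio was 6.23 in SI and 1.70 in COL (0.735 in COL by the longest coding transcript), and the COL ratio of EphB receptors to ephrin-B 0.676. With 1 library left out the ratios of Ephb2 to Ephb3 ran from 2.99 to 3.68 in SI and 0.856 to 0.915 in COL, the EphB shares from 13.3 to 19.0% and 75.5 to 79.3%, and the EphB receptor to ephrin-B ratios from 0.230 to 0.371 and 1.07 to 1.35. The cause of these changes was not tested, other than that within 1 mitochondrial class only 2 libraries a tissue remain. With 0 to 77 counts in SI, depth limits Ephb3, Epha4, Epha7 and Efna3 there.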
